A study of Mus musculus with 42 samples.

Results

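The semaphorins, plexins and neuropilins are a family of guidance ligands and receptors, and 31 of the 18193 genes measured on the arrays belong to it. Members were chosen by gene symbol: classes 3 to 7 of the semaphorins, the plexins of types A, B, C and D, and both neuropilins. They comprise 7 secreted class 3 semaphorins, 13 membrane semaphorins, 9 plexins and 2 neuropilins, measured by 78 probe sets. Each gene was read from its probe set with the highest mean over all 42 arrays, and the other probe sets served as a check.

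The RNA was that of *Fmr1*KO and WT mice, from neurons of hippocampus or cortex grown in culture and from embryonic tissue, called primary hippocampus and primary cortex. The KO mice lack the fragile X protein FMRP in every cell. Every group was untreated and on a C57BL/6 background. Embryos were 17 to 18 days post-conception, both for the tissue and for the cultures, which then grew for 14 days in vitro. There were 5 KO and 5 WT arrays per system, except for primary hippocampus with 6 and 6. Each array held RNA pooled from littermates, so the replicate is a litter and differences between single embryos, or between the sexes, cannot be seen. A mouse ID in the labels, shared across systems, was taken to name the litter, and 10 litters had an array in all 4 systems. For 1 of these, in WT, the ID is NT rather than a number, and whether its arrays share a litter was not determined. All values are log2 signals, in which a difference of 1 is a 2-fold difference.

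Semaphorins steer growing axons and migrating neurons, mostly by repulsion, and later act on dendrites, spines and synapses. Secreted class 3 semaphorins bind a neuropilin, which holds a class A plexin as the signalling subunit. Sema3e is the exception and binds Plxnd1 directly, while most membrane semaphorins bind plexins without a neuropilin. Plexins pass the signal on by switching off small GTPases and through CRMP and MICAL proteins, which act on microtubules and actin.

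*Fmr1*, the targeted gene, was lower in KO in all 4 systems by 0.90 to 0.99 on the log2 scale, with no overlap between KO and WT arrays, but KO arrays kept a signal of 7.88 to 9.18, and where this probe set lies relative to the disrupted part of the gene was not determined. Array medians ran from 5.40 to 5.56, and correlations between arrays of a group from 0.982 to 0.996. Probe sets of olfactory, vomeronasal and keratin-associated genes gave a background level of 5.16. In all 8 groups the means of 28 members were above it, and those of Sema3b, Sema3d and Sema3g were below it, so their values carry no order.

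The first question was whether members differed between *Fmr1*KO and WT. KO and WT were compared in limma at an unadjusted p under 0.05, the threshold of the study, and again after Benjamini-Hochberg adjustment over all probe sets. The study handled KO and WT cultures in same-day pairs, but the labels do not name the pairs, so these tests are unpaired. In hippocampal culture 5 of the 31 members passed the unadjusted threshold, 1 higher and 4 lower in KO. Of all genes 9.54% passed it, 6.87% higher and 2.67% lower. Cortical culture had 0 such members, beside 10.2% of all genes. Neither tissue had any, beside 1.54% of all genes in primary hippocampus and 1.66% in primary cortex. After adjustment no member passed in any system, and the share of all genes was 0.0055% in hippocampal culture, cortical culture and primary cortex and 0.0165% in primary hippocampus. The smallest adjusted p of a member was 0.329 in hippocampal culture, 0.556 in cortical culture and 1 in both tissues. These tests used 1 variance per probe set, from the fit of all 42 arrays. Spread could differ between systems, so their counts are not directly comparable. Plxnb2 had SDs of 0.50 (KO) and 0.47 (WT) in hippocampal culture, against 0.10 and 0.19 in primary hippocampus. Its standard errors were close all the same, at 0.21 and 0.19. With each system fitted alone, 4 members passed the unadjusted threshold in hippocampal culture, 1 in cortical culture and 0 in each tissue.

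The differences were small in tissue. KO minus WT of the 28 members above background ran from -0.05 (Sema5b) to 0.13 (Sema4a) in primary hippocampus and from -0.11 (Plxnd1) to 0.11 (Sema6c) in primary cortex. The Nrp2 difference in primary cortex was -0.05 with all arrays and -0.45 without the WT array of litter 3569, which read 7.20 against 9.02 or more in the other WT arrays. In hippocampal culture they ran from -0.62 (Plxnd1) to 0.40 (Plxnc1), and in cortical culture from -0.41 (Plxnd1) to 0.36 (Sema3c). The median difference of the members was -0.014 in hippocampal culture (all genes 0.013) and -0.033 in cortical culture (all genes 0.009). It was 0.054 in primary hippocampus (all genes -0.003) and -0.010 in primary cortex (all genes 0.012). Standard errors of single members ran from 0.068 to 0.386 over the 4 systems.

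**Figure D1:**
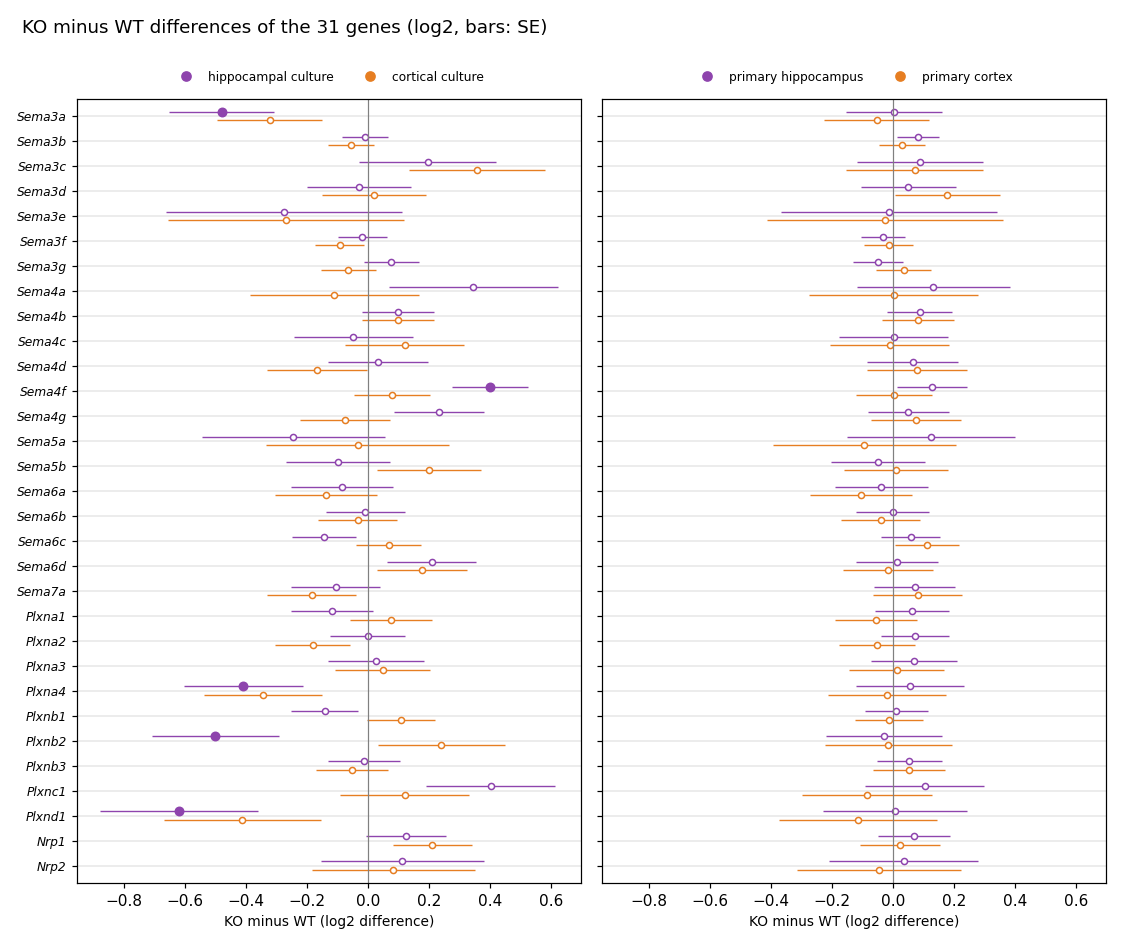
KO minus WT log2 difference of each of the 31 genes, with the standard error of the limma fit as a bar, for the cultures (left) and the tissues (right). Filled points passed the unadjusted threshold: 5 genes in hippocampal culture and 0 in the other systems, with tissue values between -0.11 and 0.13 for the 28 genes above background.

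Among the secreted ligands, Sema3a, the classical growth cone collapsing factor, was the member that passed. In hippocampal culture its log2 signal was 6.99, 6.75, 7.46, 7.55 and 7.48 in KO, against 7.59, 7.65, 7.78, 8.20 and 7.40 in WT. The 2 lowest values were KO arrays, and the groups overlapped only through the lowest WT array. The difference was -0.48 (SE 0.17, limma adjusted p = 0.400, exact permutation p = 0.0476, two-sided). Exact tests were run only for members that had already passed on the same arrays, so they are not separate support. In cortical culture Sema3a was 7.68, 8.52, 7.72, 8.09 and 7.91 in KO, against 8.14, 8.21, 8.35, 8.50 and 8.35 in WT, a difference of -0.32 that did not pass. Of the 5 KO arrays there, 4 lay below every WT array and 1 above them all. A weaker Sema3a probe set differed by -0.52 in cortical culture and passed the unadjusted threshold, and by -0.35 in hippocampal culture, where it did not. Sema3e, the ligand of Plxnd1, differed by -0.28 in hippocampal culture on its main probe set without passing, while 1 of its 3 other probe sets differed by -1.05 and passed.

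Among the membrane ligands Sema4f, which in rodents is found at glutamatergic synapses bound to PSD-95, was the only one to pass and the only member whose groups did not overlap. Its log2 signal in hippocampal culture was 10.22, 10.34, 10.31, 10.15 and 10.38 in KO, against 10.14, 10.15, 9.52, 9.57 and 10.02 in WT. The lowest KO array was above the highest WT array only beyond the second decimal, and 2 WT arrays lay well below the rest. The difference was 0.40 (SE 0.13, adjusted p = 0.329), with an exact permutation p = 0.00794, the smallest that 5 arrays against 5 allow. A second Sema4f probe set differed by 0.30 and passed the unadjusted threshold too. In cortical culture KO arrays held 8.73, 9.46, 8.91, 9.03 and 9.14 and WT arrays 8.73, 9.14, 8.99, 9.05 and 8.97, with full overlap and a difference of 0.08.

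Among the receptors 3 plexins passed, all lower in KO hippocampal culture. Plxna4, the class A plexin that carries Sema3a signals together with Nrp1, read 8.64, 8.32, 8.47, 8.96 and 8.81 in KO, against 9.49, 8.72, 8.66, 9.39 and 8.98 in WT. All KO arrays were below the highest 3 WT arrays, and the 2 lowest WT arrays lay within the KO range. The difference was -0.41 (SE 0.19, adjusted p = 0.547, exact permutation p = 0.0952).

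Plxnb2, the receptor of Sema4c, read 8.94, 8.99, 8.89, 9.30 and 7.98 in KO, against 8.81, 9.53, 9.96, 8.91 and 9.39 in WT. One KO array stood far below the others, and 2 WT arrays lay inside the KO range. The difference was -0.50 (SE 0.21, adjusted p = 0.475, exact permutation p = 0.151). Plxnd1 read 5.84, 6.32, 6.98, 7.50 and 6.22 in KO, against 7.32, 6.78, 8.22, 7.12 and 6.52 in WT. The groups overlapped over most of their range, with a difference of -0.62 (SE 0.26, adjusted p = 0.475, exact permutation p = 0.175).

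The same receptors in cortical culture gave no call. Plxna4 differed by -0.34, with 8.31, 8.53, 8.05, 8.86 and 8.80 in KO and 8.77, 9.06, 8.56, 8.88 and 8.98 in WT, and a second Plxna4 probe set differed by -0.38 and passed. Plxnd1 differed by -0.41, with 9.22 to 9.71 in KO and 9.47 to 10.34 in WT. Plxnb2 differed by 0.24, opposite in sign to hippocampal culture. With all arrays the neuropilins passed in no system, with KO minus WT of Nrp1 at 0.13 and Nrp2 at 0.11 in hippocampal culture. Plxnb2 and Plxnd1 each have a single probe set and could not be checked on another. With the hippocampal culture arrays fitted alone neither of them passed, while Sema3a, Sema4f and Plxna4 did, and so did Sema6d (0.21).

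Calls in hippocampal culture were repeated with each of the 10 arrays left out in turn. Sema4f passed in every case, with 0.31 to 0.47. Sema3a lost its call without the KO array of litter 2038, at -0.36. Plxnb2 lost it without the KO array of litter 4236 (-0.29) and without the WT array of litter 2643 (-0.45) or 2644 (-0.34). Plxnd1 lost it without the KO array of litter 2037 (-0.44), 2038 (-0.56) or 4236 (-0.53) and without the WT array of litter 2644 (-0.36). Plxna4 lost it in 5 cases, without the KO array of litter 2037, 2038 or 2221 (-0.41, -0.33 and -0.36) and without the WT array of litter 2236 (-0.30) or 3569 (-0.32). None of these differences changed sign. Plxnc1 (0.49 and 0.54) and Sema4g (0.36 and 0.33) gained a call without the KO array of litter 2037 or the WT array of litter 2643.

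In cortical culture 6 members passed with 1 array left out. Nrp1 did so without the KO array of litter 2037 or the WT array of litter 3569 (0.30 each), Sema3c without KO litter 4236 (0.48) or WT litter 2236 (0.54), and Sema5b without KO litter 4236 (0.40). Plxnb2 did so without WT litter 2236 (0.46), Sema3a without KO litter 2038 (-0.46) and Plxna4 without KO litter 2620 (-0.43). In primary cortex Nrp2 passed without WT litter 3569 (-0.45), though not after adjustment, and in primary hippocampus no member passed in any of these refits.

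**Figure D2:**
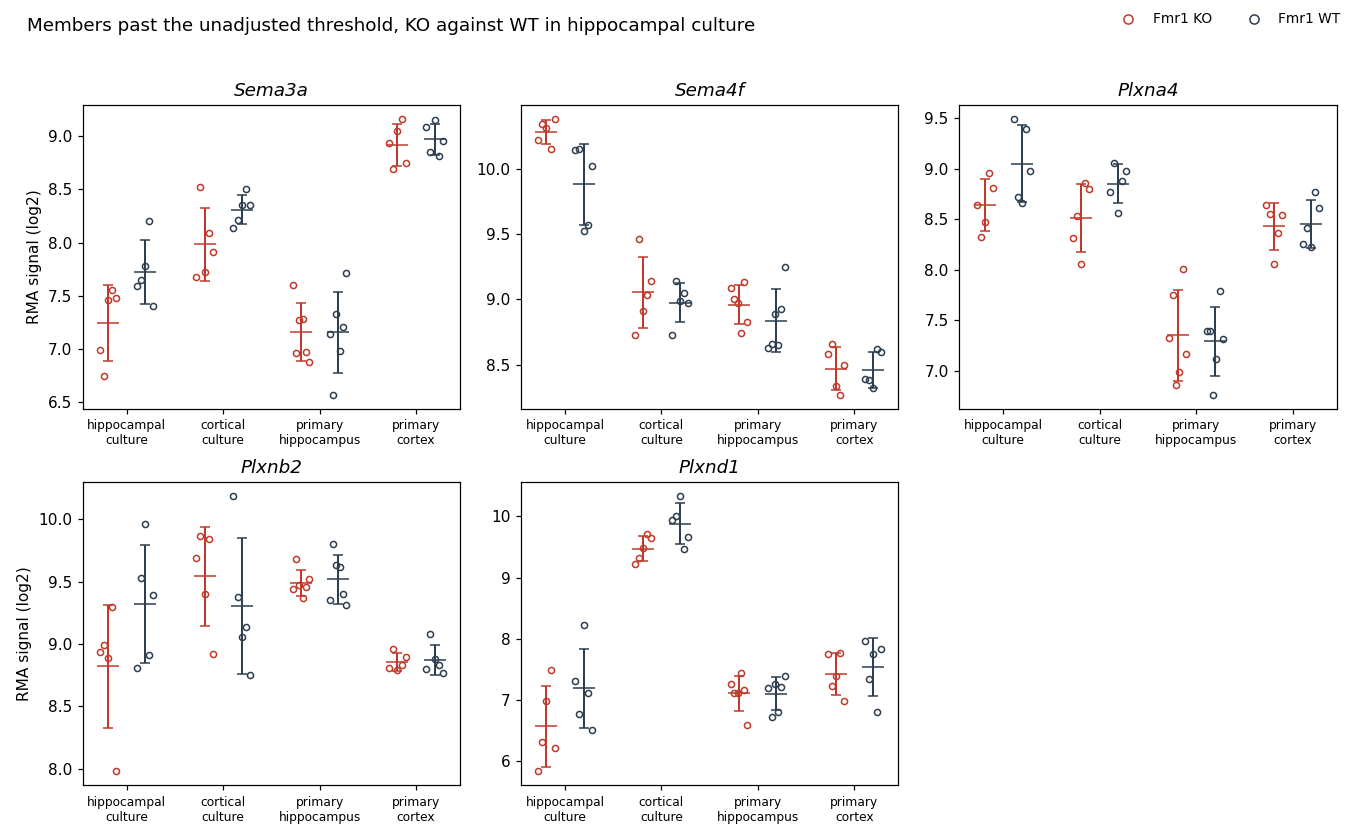
Log2 signal of the 5 members past the unadjusted threshold in hippocampal culture, 1 point per array, with mean and SD, for KO (red) and WT (dark blue) in each system. Sema4f in hippocampal culture is the only pair with separate ranges, from 10.15 in KO and up to 10.15 in WT at 2 decimals.

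The arrays are of bulk RNA, in which fewer cells of a type and less RNA per cell cannot be told apart. In hippocampal culture 5 of 10 newborn neuron markers passed the unadjusted threshold, all higher in KO. The mean level of that list was 9.71 to 10.17 in KO arrays and 9.31 to 10.05 in WT arrays, with Nhlh1 at background. Of 10 interneuron markers 1 was higher, and of the mature neuron, astrocyte, oligodendrocyte, microglia and endothelial lists no marker passed there. The part of newborn neurons in the KO differences was not tested.

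When the 4 systems were averaged within each of the 10 litters, 4 members passed the unadjusted threshold, 3 higher and 1 lower in KO, beside 4.54% of all genes. None passed after adjustment (0.011% of all genes), and the adjusted p was 1 for each. Sema3a averaged 7.84 ± 0.11 in KO and 8.05 ± 0.15 in WT litters (SD, n = 5 each, exact permutation p = 0.0476). The single litter means of Sema3a were 7.80, 7.73, 7.88, 8.02 and 7.78 in KO, against 7.99, 7.82, 8.15, 8.18 and 8.10 in WT, and they overlapped. Sema4f averaged 9.20 ± 0.13 in KO and 9.05 ± 0.11 in WT (exact permutation p = 0.0794, n = 5 each). The other 2 were Sema3c, a secreted ligand that attracts cortical axons, and Plxnc1, the receptor of Sema7a. Sema3c litter means were 10.20, 10.48, 10.14, 10.11 and 10.13 in KO and 10.13, 9.94, 9.94, 10.13 and 10.06 in WT (difference 0.17, exact permutation p = 0.0556), separated except between 10.11 and 10.13. Plxnc1 litter means were 9.52, 9.72, 9.37, 9.61 and 9.49 in KO and 9.33, 9.43, 9.31, 9.41 and 9.50 in WT (difference 0.14, exact permutation p = 0.0714), with overlap in 2 KO and 3 WT litters.

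The KO difference itself was compared between cultures and tissues. For 2 members, beside 7.42% of all genes, it was lower in culture past the unadjusted threshold. The KO difference of Sema3a was lower in culture than in tissue by 0.38 on the log2 scale (adjusted p = 0.664), and group means in KO and WT were 7.16 and 7.16 in primary hippocampus and 8.92 and 8.97 in primary cortex. The value for Plxna4 was -0.39 (adjusted p = 0.686), with 7.35 and 7.29 in primary hippocampus and 8.43 and 8.45 in primary cortex. No member passed after adjustment.

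The regional comparison asked how hippocampus and cortex differ, over both genotypes, and members stood out here by larger differences than between genotypes. Calls needed an adjusted p under 0.05 and at least a 2-fold difference. In tissue 5 of 31 members were called, 3 higher and 2 lower in hippocampus, beside 3.89% of all genes. In culture 5 were called, 4 higher and 1 lower, beside 2.48%. Without the fold minimum the counts were 21 in tissue (13 higher, 8 lower), beside 36.4% of all genes, and 16 in culture (8 higher, 8 lower), beside 28.2%. Both of these counts include Sema3d among the higher, though it is at background, where values carry no order. A share of members above that of all genes describes this list and was not tested as such. Of all genes 65.6% were above background on average, against all members but Sema3b, Sema3d and Sema3g, so the shares are not of like genes.

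The ligand Sema3e and its receptor Plxnd1 differed in opposite directions between the cultures. Sema3e had a lowest, median and highest log2 signal of 8.49, 8.80 and 9.97 in hippocampal culture, against 5.07, 6.13 and 7.72 in cortical culture. Every hippocampal culture was above every cortical culture, by 2.81 on average (SE 0.27, 7.01-fold, adjusted p = 1.77e-10). The cortical culture range reached just below the background level of 5.16, so the size of the Sema3e difference is uncertain. Plxnd1 had 5.84, 6.88 and 8.22 in hippocampal culture, against 9.22, 9.66 and 10.34 in cortical culture. Again the ranges were apart, with a difference of -2.80 (SE 0.18, 6.96-fold, adjusted p = 4.95e-15). All 3 other probe sets of Sema3e had the direction of the main one, with differences of 1.90 to 2.33.

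In tissue the pair differed less. Sema3e had 5.41, 6.50 and 7.38 in primary hippocampus, against 4.58, 5.41 and 6.39 in primary cortex, a difference of 1.07 (SE 0.26, adjusted p = 0.00134) with overlapping ranges. The other probe sets of Sema3e gave 0.10 to 0.76 in tissue and none was called, and without 1 array (primary cortex WT of litter 2643, or primary hippocampus WT of litter 3569) the difference was below 2-fold, at the lowest 0.97. Plxnd1 differed by -0.38 in tissue (adjusted p = 0.103).

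Nrp2, the neuropilin that binds Sema3f and Sema3c, was higher in hippocampus in both preparations. In tissue it had 10.68, 10.88 and 11.40 in hippocampus, against 7.20, 9.11 and 9.52 in cortex, a difference of 2.17 (SE 0.18, 4.51-fold, adjusted p = 1.70e-12) with no overlap. In culture it had 9.87, 10.32 and 10.70, against 8.21, 8.53 and 8.94, a difference of 1.78 (SE 0.19, 3.44-fold, adjusted p = 1.49e-09), again with no overlap. All 3 other Nrp2 probe sets were called in the same direction, with 1.52 to 2.41 in tissue and 1.29 to 2.57 in culture. Nrp1, the Sema3a co-receptor, had 11.66, 11.99 and 12.21 in hippocampal culture, against 10.25, 10.50 and 10.98 in cortical culture. The ranges were apart and the difference was 1.43 (SE 0.09, adjusted p = 3.21e-15), against 0.63 in tissue, which passed the adjusted threshold but not 2-fold.

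Sema3a itself was lower in hippocampus. In tissue it had 6.57, 7.17 and 7.71 in hippocampus, against 8.69, 8.94 and 9.16 in cortex, a difference of -1.79 (SE 0.12, 3.45-fold, adjusted p = 1.92e-15) with no overlap. In culture the difference was -0.66, under 2-fold, with overlapping ranges. Its other probe sets were called too in tissue, with -1.36 and -1.85. Plxna4 had 6.76, 7.31 and 8.01 in primary hippocampus, against 8.05, 8.48 and 8.77 in primary cortex. These ranges just failed to meet, and the difference was -1.12 (SE 0.13, adjusted p = 7.89e-09), while the other Plxna4 probe set gave -0.95, under 2-fold. In culture Plxna4 differed by 0.17 and was not called.

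Sema3c was higher in hippocampal tissue, with 11.16, 11.47 and 12.10 in hippocampus, against 9.99, 10.30 and 10.68 in cortex, a difference of 1.26 (SE 0.15, adjusted p = 1.32e-08) with no overlap. In culture it differed by 0.72. Sema4f had 9.52, 10.15 and 10.38 in hippocampal culture, against 8.73, 9.01 and 9.46 in cortical culture, a difference of 1.06 (SE 0.09, adjusted p = 3.46e-12) with no overlap, though its second probe set gave 0.91, under 2-fold. Sema5b, which limits synapse number in cultured hippocampal neurons, lay just under the fold minimum in tissue, at 0.997 (adjusted p = 5.28e-09), with 6.79 to 7.51 in hippocampus and 5.74 to 6.46 in cortex.

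**Figure D3:**
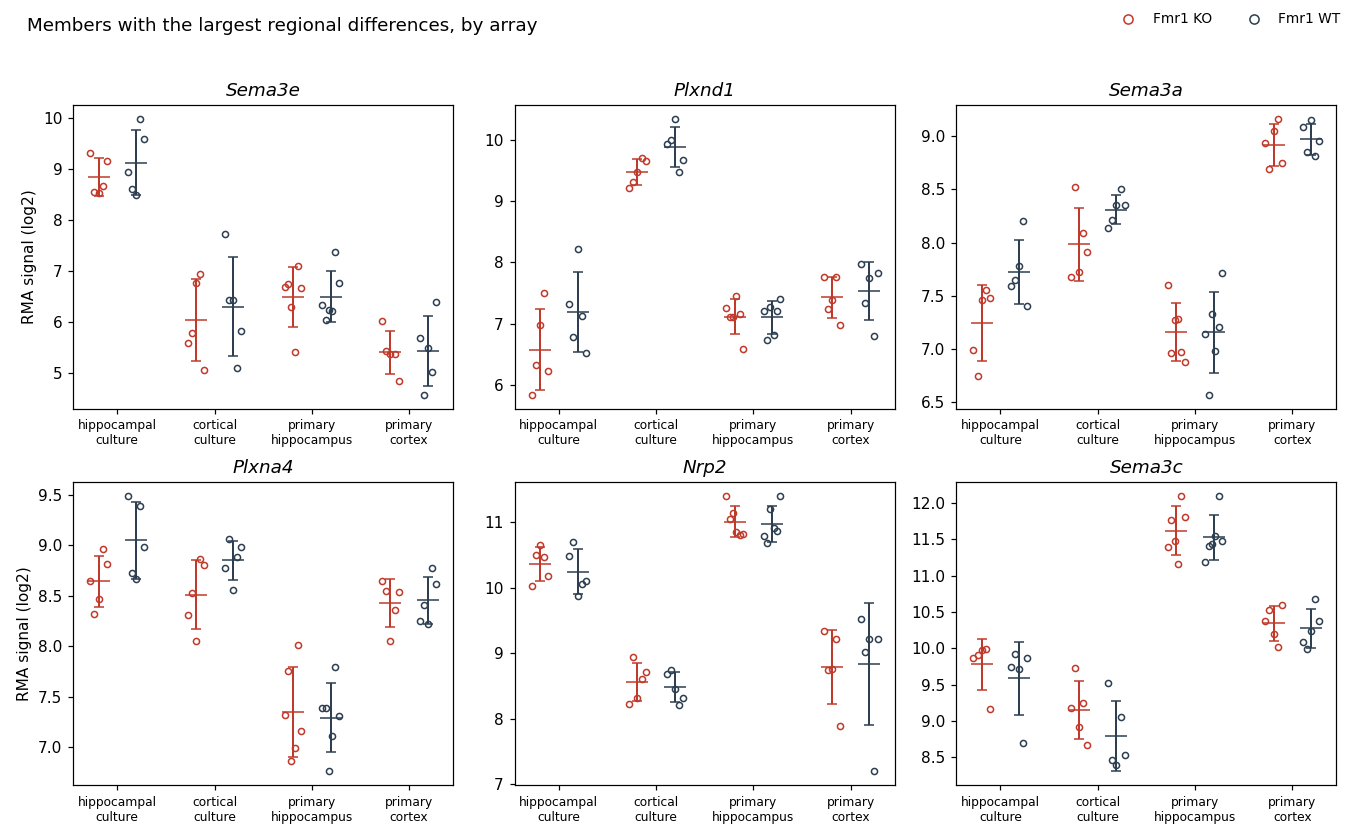
Log2 signal of 6 members with large regional differences, 1 point per array, with mean and SD, for KO (red) and WT (dark blue) in each system. Sema3e is at 8.49 or above in every hippocampal culture and Plxnd1 at 9.22 or above in every cortical culture.

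Promoter sequences of Sema3e, Plxnd1 and Nrp2 are shown because these 3 members had the largest differences between regions. They are RefSeq promoters of build GRCm38.p6, from 250 bases before to 50 bases after the annotated start, 5′ to 3′ on the strand of the gene. Sema3e lies at chr5:14025026-14025325 (+), Plxnd1 at chr6:115994956-115995255 (-) and Nrp2 at chr1:62703067-62703366 (+). The start used is the first base of the annotated gene for Sema3e and Nrp2 and lies 334 bases inside it for Plxnd1. Capitals mark every match, on either strand and with overlaps counted, to 5 motifs: the GC box GGGCGG, the CCAAT box CCAAT, the TATA box TATAAA and the E-boxes CAGATG and CAGCTG.
Sema3e: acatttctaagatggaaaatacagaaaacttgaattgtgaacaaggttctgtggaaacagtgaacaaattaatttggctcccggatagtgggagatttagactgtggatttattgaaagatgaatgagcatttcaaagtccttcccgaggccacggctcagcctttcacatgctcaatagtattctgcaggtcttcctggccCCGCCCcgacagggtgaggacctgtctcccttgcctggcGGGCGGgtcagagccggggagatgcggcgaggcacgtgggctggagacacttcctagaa
Plxnd1: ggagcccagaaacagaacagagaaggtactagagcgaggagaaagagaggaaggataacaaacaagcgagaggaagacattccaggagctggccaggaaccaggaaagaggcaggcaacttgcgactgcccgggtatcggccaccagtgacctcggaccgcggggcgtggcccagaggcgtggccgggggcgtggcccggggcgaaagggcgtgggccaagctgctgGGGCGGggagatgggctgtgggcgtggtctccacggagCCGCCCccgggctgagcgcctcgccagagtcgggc
Nrp2: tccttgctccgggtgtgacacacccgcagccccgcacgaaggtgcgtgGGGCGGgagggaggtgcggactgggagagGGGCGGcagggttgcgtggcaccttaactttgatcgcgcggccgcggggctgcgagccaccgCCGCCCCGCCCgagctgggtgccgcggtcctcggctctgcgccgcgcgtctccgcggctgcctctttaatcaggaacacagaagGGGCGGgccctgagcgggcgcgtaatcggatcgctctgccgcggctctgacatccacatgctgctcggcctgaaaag
Every capital here belongs to a GC box. Sema3e and Plxnd1 each held 2 GC boxes and Nrp2 held 5. CpG dinucleotides numbered 11 in Sema3e, 23 in Plxnd1 and 37 in Nrp2, beside a median of 7 over 32544 distinct promoters of this length. Of the 31 members 26 had a promoter in the RefSeq table, 37 in all, with a median of 15 CpG. Of these 37, 21 began within 1000 bases of the outer start of their gene and 16 at starts farther inside it, the Sema3a window among these. A GC box was in 27 of these 37 (73.0%) and in 35.9% of all promoters, a CCAAT box in 7 (18.9%) and 37.4%, a TATA box in 0 and 13.6%, CAGATG in 2 (5.41%) and 17.1%, and CAGCTG in 6 (16.2%) and 16.4%. These are letters in a window near the start, and no binding was measured.

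The regional difference was tested for a change between culture and tissue. It differed by at least 2-fold for 5 members, 3 higher and 2 lower in culture, beside 5.07% of all genes. The 3 higher were the ligands Sema3e (1.74, SE 0.38, adjusted p = 4.76e-04) and Sema3a (1.12, SE 0.17, adjusted p = 2.47e-06) and the receptor Plxna4 (1.28, SE 0.19, adjusted p = 1.78e-06). The 2 lower were the receptors Plxnd1 (-2.42, SE 0.25, adjusted p = 1.50e-09) and Plxnc1 (-1.23, SE 0.21, adjusted p = 1.57e-05). The Sema3e value draws on primary cortex, where its signal was near background, so its size is uncertain. For Sema3a this means a regional difference of -0.66 in culture, against -1.79 in tissue. Plxnc1 changed sign, with hippocampus minus cortex at -0.73 in culture, against 0.50 in tissue, both under 2-fold. Of its 5 other probe sets 2 were called in the same direction (-1.36 and -1.13), and 1 gave 0.04. Plxnb2 (-0.99, adjusted p = 2.44e-04) was just under the fold minimum.

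The last comparison set cultures against the tissue of the same region, over both genotypes. In hippocampus 7 of 31 members were called at 2-fold, 4 higher and 3 lower in culture, beside 19.4% of all genes. In cortex 4 were called, 2 higher and 2 lower, beside 18.1%. Without the fold minimum 22 members passed in hippocampus (9 higher, 13 lower), beside 72.1% of all genes, and 23 in cortex (13 higher, 10 lower), beside 71.2%. The members' shares were thus close to those of all genes. The lower ones without the fold minimum include Sema3d and Sema3g in hippocampus and Sema3g in cortex. These are at background, where values carry no order.

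Secreted ligands moved both ways. Sema3e was higher in hippocampal culture, with 8.49, 8.80 and 9.97, against 5.41, 6.50 and 7.38 in primary hippocampus, a difference of 2.48 (SE 0.26, 5.60-fold, adjusted p = 7.48e-11) with no overlap. In cortex it differed by 0.75 with overlapping ranges. Sema3c was lower in culture in both regions. It had 8.70, 9.87 and 9.99 in hippocampal culture, against 11.16, 11.47 and 12.10 in primary hippocampus (-1.88, SE 0.15, adjusted p = 5.19e-14). In cortical culture it had 8.39, 8.99 and 9.73, against 9.99, 10.30 and 10.68 in primary cortex (-1.34, SE 0.16, adjusted p = 1.44e-09). Neither pair overlapped. Sema3a differed by 0.33 in hippocampus and by -0.80 in cortex, where its ranges were apart.

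Of the membrane ligands, Sema4c was lower in culture in both regions without overlap. It had 5.66, 6.34 and 7.44 in hippocampal culture, against 7.60, 7.98 and 8.26 in primary hippocampus (-1.53, SE 0.13, adjusted p = 3.20e-13). In cortical culture it had 6.02, 6.47 and 7.05, against 8.37, 8.77 and 8.97 in primary cortex (-2.26, SE 0.14, 4.79-fold, adjusted p = 1.63e-17). Sema4f was higher in hippocampal culture, with 9.52, 10.15 and 10.38, against 8.63, 8.91 and 9.25 in tissue (1.18, SE 0.09, adjusted p = 1.77e-15), and its second probe set gave 1.39. Sema4a, which acts on immune cells and vessels, was also higher in hippocampal culture, with 5.96, 7.22 and 7.73, against 5.54, 6.00 and 6.42 in tissue (1.16, SE 0.19, adjusted p = 1.0e-06). One culture lay within the tissue range.

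Of the receptors, Plxna4 was higher in hippocampal culture, with 8.32, 8.77 and 9.49, against 6.76, 7.31 and 8.01 in tissue (1.52, SE 0.13, adjusted p = 3.68e-13). Plxna3, a receptor subunit for Sema3f, was lower there, with 6.95, 7.57 and 8.07, against 8.64, 8.85 and 9.21 (-1.39, SE 0.11, adjusted p = 9.91e-15). Neither overlapped. In cortex Plxnd1 was higher in culture, with 9.22, 9.66 and 10.34, against 6.80, 7.57 and 7.97 in tissue (2.20, SE 0.18, 4.58-fold, adjusted p = 1.46e-13). Plxnc1 was higher there too, with 9.74, 10.14 and 11.00, against 8.25, 8.86 and 9.20 (1.46, SE 0.15, adjusted p = 4.73e-11). In hippocampus Plxnd1 differed by -0.23 and Plxnc1 by 0.23, and neither passed the adjusted threshold.

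The co-receptors were not called at 2-fold. Nrp1 differed by -0.97 between cortical culture and primary cortex (adjusted p = 4.86e-12), with 10.25 to 10.98 in culture and 11.30 to 11.67 in tissue. Nrp2 differed by -0.68 in hippocampus on its main probe set, while 2 others gave 0.67 and 0.57, so its direction rests on the choice of probe set. The main Plxna2 probe set gave -0.33 in hippocampus and -0.27 in cortex, and its other 3 gave -0.07 to 0.11 and 0.01 to 0.19.

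The remaining members were under 2-fold in every comparison of culture with tissue and of hippocampus with cortex. Among them Sema4d, a ligand of Plxnb1, was lower in culture than in tissue in hippocampus (-0.52) and cortex (-0.78) and higher in hippocampus than in cortex in culture (0.58) and tissue (0.32), all past the adjusted threshold. Plxna1, a class A plexin, was higher in culture in hippocampus (0.89) and cortex (0.48). Sema6a, a ligand of Plxna2 and Plxna4, was higher in hippocampal than in cortical tissue (0.87), as were Sema6d (0.58) and Plxnb2 (0.64). Sema5a, which inhibits axon growth, was lower in cortical culture than in primary cortex (-0.88), and a second probe set was called there with -1.27. Sema7a, the membrane-anchored ligand of Plxnc1, was higher in hippocampal culture than in primary hippocampus (0.44), and Sema6b by 0.59. The differences of Sema3f, Sema4b, Sema4g, Sema6c, Plxnb1 and Plxnb3 lay between -0.49 and 0.39 in these 4 comparisons.

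**Figure D4:**
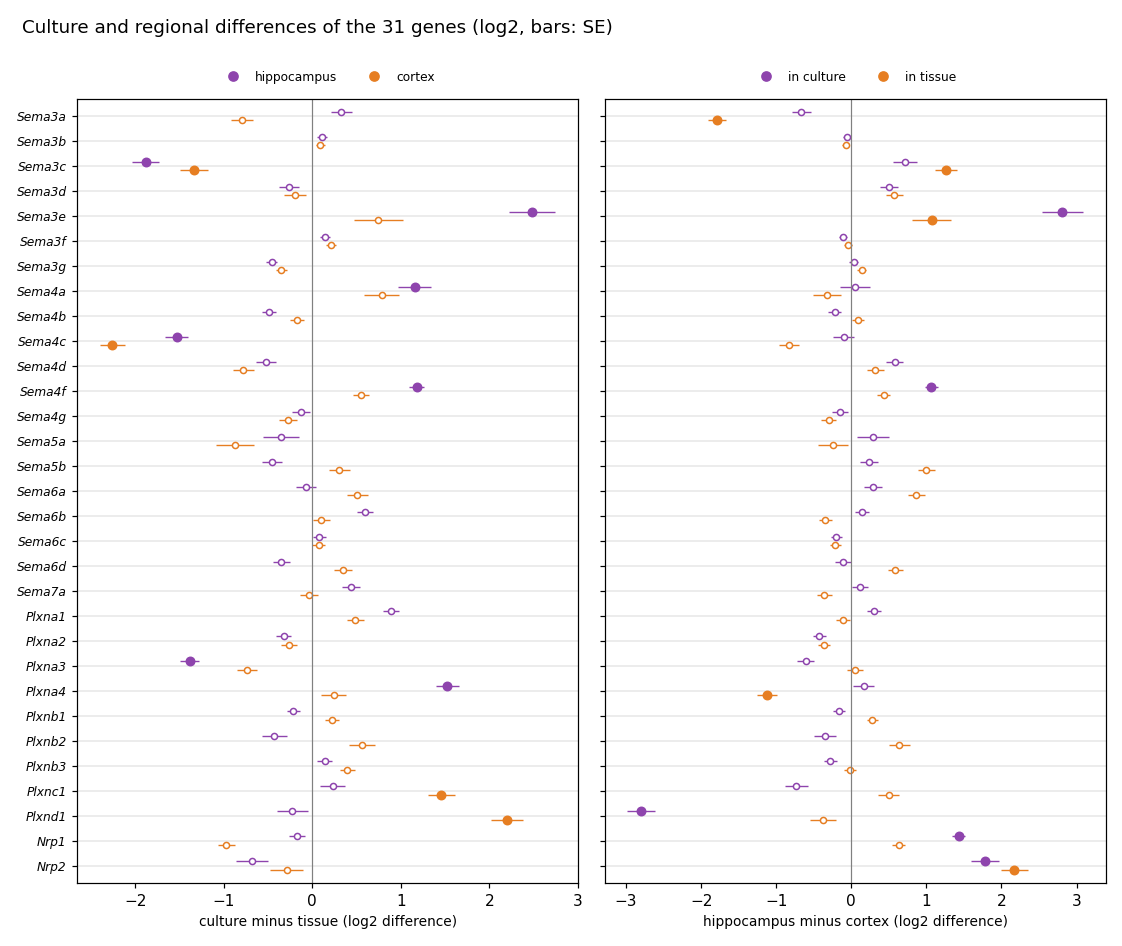
Log2 difference of each of the 31 genes with its standard error, for culture minus tissue in hippocampus and cortex (left) and hippocampus minus cortex in culture and tissue (right). Filled points passed an adjusted p under 0.05 with at least a 2-fold difference, from -2.80 for Plxnd1 to 2.81 for Sema3e, both between the cultures.

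Markers of other cells moved with these comparisons. Of the microglia list 9 of 10 markers were lower in culture than in tissue in hippocampus and 7 of 10 in cortex, and 7 of 10, C1qa and P2ry12 among them, were at background in hippocampal cultures. Of the endothelial list 6 of 9 were lower in each region, and of the newborn neuron list 7 and 8 of 10. Of 10 mature neuron markers 8 were higher in hippocampus, and 6 higher and 1 lower in cortex. Of 10 astrocyte markers 5 were higher and 1 lower in hippocampus, and 6 higher in cortex. Of the radial glia and dividing progenitor list 6 of 9 were lower in each region. Of 8 Cajal-Retzius markers 6 were lower and 1 higher in hippocampus, and 4 lower in cortex. Of all genes 19.4% were called either way in hippocampus and 18.1% in cortex. Between the cultures, the mean level of the oligodendrocyte list was 5.82 to 6.15 in hippocampal arrays and 6.72 to 7.57 in cortical arrays, that of the interneuron list 6.42 to 7.44 in hippocampal and 7.45 to 8.02 in cortical arrays, and that of the choroid plexus list 5.14 to 6.01 and 4.46 to 4.96. The Cajal-Retzius list was apart too, at 5.93 to 6.45 in hippocampal and 5.57 to 5.85 in cortical cultures. Only 3 of its 8 markers were above background in either culture, so this gap rests on few genes. Of the choroid plexus list 5 of 10 were above background in hippocampal and 3 of 10 in cortical arrays, in culture and in tissue alike. Values at background carry no order. In tissue the Cajal-Retzius list was at 7.59 to 8.00 in hippocampus and 6.30 to 6.90 in cortex, the astrocyte list at 8.00 to 8.41 and 6.99 to 7.43, and the mature neuron list at 7.73 to 8.24 and 8.56 to 8.95. The microglia and pericyte lists were also apart there, at 6.22 to 6.92 in hippocampus and 5.73 to 5.99 in cortex, and at 6.44 to 7.26 and 5.66 to 6.11. So were the choroid plexus (5.61 to 7.10 and 4.16 to 5.37), the radial glia and dividing progenitor (10.06 to 10.55 and 9.26 to 9.98) and, barely, the newborn neuron list (11.21 to 11.52 and 11.05 to 11.20). The part of these cells in the differences of the members was not tested.

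Of 40 listed partners of semaphorin signalling 38 were measured. In KO hippocampal culture 4 were higher and 2 lower past the unadjusted threshold, beside 6.87% and 2.67% of all genes. The higher ones were Limk1, a kinase that inactivates cofilin (0.40), and the CRMP proteins Crmp1 (0.36), Dpysl3 (0.27) and Dpysl2 (0.15). The lower ones were the adhesion molecule Cntn2 (-0.31) and the plexin-binding kinase Fes (-0.21). In KO cortical culture Arhgef12 (0.22), an activator of RhoA that binds B plexins, and the kinase Fyn (0.21) were higher, and in the tissues 0 passed. None had an adjusted p under 0.05, and for the CRMP proteins and Limk1 the KO and WT ranges overlapped. In the same KO cultures 5 of 10 newborn neuron markers were higher, and their part in the CRMP differences was not tested.

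Between culture and tissue 4 of the 38 partners were higher and 4 lower at 2-fold in hippocampus, beside 19.4% of all genes, and 3 were higher and 3 lower in cortex, beside 18.1%, so the counts were near those of all genes. Mical1, an actin-oxidizing effector of class A plexins, was at background in all cultures (4.13 to 4.82), against 7.30 to 7.73 in primary hippocampus and 7.23 to 7.60 in primary cortex, so the size of its difference was not measured. Nrcam, an adhesion molecule of the Nrp2 receptor complex, was higher by 2.31 in hippocampus, and Rap1gap, which switches off the plexin target Rap1, by 1.47 and 1.54. Tyrobp, also a microglia marker, was likewise at background in hippocampal culture (4.25 to 4.65), against 6.49 to 7.56 in primary hippocampus. Cntn2 differed by -2.98 in cortex. Met, a receptor that couples to B plexins, was higher by 1.98 in cortical culture than in primary cortex and lower by 1.24 in hippocampal culture than in primary hippocampus. Between the cultures Met differed by -4.09 (hippocampal minus cortical, adjusted p = 1.22e-13), with 4.51 to 6.73 in hippocampal and 8.27 to 10.62 in cortical culture. The hippocampal culture range reached below the background level of 5.16, so the size of both Met differences that use it is uncertain.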

How the data were processed

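Total RNA, 100 ng per array, had been hybridized to Affymetrix mouse arrays. The authors deposited log2 signals made with RMA (background correction, quantile normalization, 1 summary per probe set), which were used unscaled. Which arrays were normalized together is not given in the sources used here. Arrays hold no counts, so their number limits the precision.

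Of 45101 probe sets 64 controls were left out and 45037 tested. Group means of all 42 arrays were fitted with lmFit and eBayes (R 4.3.3, limma 3.58.1, 34 residual and 3.58 prior degrees of freedom), with Benjamini-Hochberg adjustment over all probe sets. The fit was tested on simulated data with independent noise of the same spread in every group. That setting cannot show how the fit behaves with unequal spread between systems or with correlated arrays of a litter. As background level served the 95th percentile over 123 probe sets of olfactory, vomeronasal and keratin-associated genes. A gene's probe set was that with the highest mean. Exact permutation tests were two-sided, over arrays or litters. They were run only for the 9 KO member results already called on the same values, and were not corrected for that choice or for their number.

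All members are named. Values of each array are given for members called between KO and WT, and ranges for the largest differences otherwise, with partner genes named by the same kind of rule. Sema5b and Plxnb2, just under a fold minimum, and Met between the regions, were chosen after their values were seen. Members, partner and marker lists were chosen with earlier results of these data known. All 31 Entrez IDs matched RefSeq (GRCm38.p6).

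Litters tie arrays across systems within a genotype, as labelled, never KO to WT. Cultures of both genotypes were handled in same-day pairs that the labels do not name, so no KO test is paired. Deviations of arrays of the same litter correlated with a median of 0.065 (-0.314 to 0.678, 60 pairs), and between primary hippocampus and primary cortex with 0.237 to 0.547. No block was used in the reported tests. Alternatives were the probe set, scaling, variance model, background filter, litter as a block, arrays fitted, threshold and leaving out each array. Figures used Python with Matplotlib.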

Additional observations from a re-analysis of the deposited data

Results flagged for a closer look

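In 13 of 248 combinations of member and group, 1 array stood apart from the rest of its group by Dixon's test, about as many as the 1 in 20 that chance gives. Arrays of litter 3569, from different systems, stood apart 4 times. They were low for Nrp2 in primary cortex WT (7.20, next 9.02) and for Sema3c in hippocampal culture WT (8.70, next 9.71). In primary hippocampus WT the array was high for Sema5a (7.76, next 6.52) and Sema6d (11.15, next 10.61). With each array left out in turn, the Nrp2 difference between hippocampal and cortical tissue was at least 1.97. Without that Nrp2 array the KO difference in primary cortex was -0.45 and passed the unadjusted threshold, against -0.05 with it. Arrays of litter 4236 stood apart 3 times, low in hippocampal culture KO for Plxnb1 (7.63) and Sema3c (9.16) and high in cortical culture KO for Sema6c (8.08). The other low arrays were Sema3f in cortical culture KO (8.19) and in hippocampal culture WT (8.13), Sema4a in hippocampal culture WT (5.96, next 7.14), Sema4b (7.44) and Sema6b (5.64) in primary hippocampus WT, and Sema5b in primary hippocampus KO (6.87).

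The difference between hippocampus and cortex itself differed between culture and tissue, by a test of the interaction in limma, for Sema3e (1.74), Plxna4 (1.28), Sema3a (1.12), Plxnc1 (-1.23) and Plxnd1 (-2.42). Each kept its call whichever array was left out. The KO difference differed between culture and tissue at the unadjusted threshold for Plxna4 (-0.39) and Sema3a (-0.38), and neither passed after adjustment. With each of 42 arrays left out in turn, Plxna4 lost that call 22 times and Sema3a 8 times.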

How the results depend on the processing

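Of 218 refits of the 37 member calls under other settings, 211 kept call and direction, 7 lost the call and 0 reversed. Some of the 218 could not lose a call: leaving out members at background changed none of these values. The probe set of the smallest p could not lose a KO call either. Changes of threshold are not among the 218, and after adjustment no KO call passed. Of 828 refits without 1 array or litter, 764 kept call and direction, 64 lost the call and 0 reversed. Calls of culture against tissue and of region by preparation lost none of their calls in those refits. With litter as a random replicate block (correlation 0.068) every count stayed, with 5 members in KO hippocampal culture, and with litter as a fixed block 7 members were called between culture and tissue in hippocampus and 4 in cortex.

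With the probe set of the smallest p, the count was 7 in KO hippocampal culture (5 otherwise), 5 in KO cortical culture (0 otherwise) and 2 in KO primary cortex (0 otherwise). It was 6 over litters (4 otherwise) and 5 for the KO difference between culture and tissue (2 otherwise). Sema6a was then lower in KO past the unadjusted threshold in hippocampal culture (-0.23), cortical culture (-0.22) and over litters (-0.13). Sema3e was so in hippocampal culture (-1.05) and over litters (-0.41). With the smallest-p probe set Sema6c differed by -0.20 in KO cortical culture and Plxna1 by 0.25 in KO primary cortex, opposite in sign to the main probe sets. Plxna4 between regions in tissue (-0.95) and Sema4f between regions in culture (0.91) were under 2-fold with it. Centring the arrays gave 1 member in KO cortical culture (Sema3a) and 2 over litters (4 otherwise), and arrays of 1 system alone gave 1 in KO cortical culture (Plxnd1). Over all genes, centring changed the share of calls that were higher to 28.8% from 60.4% in KO cortical culture, to 33.1% from 60.9% for the KO difference between culture and tissue, and to 48.0% from 68.4% over litters. At an adjusted p under 0.05, 0 members passed in each KO comparison. With no fold minimum 22 and 23 passed between culture and tissue in hippocampus and cortex, 21 and 16 between regions in tissue and culture, and 18 for region by preparation. The counts of 22, 23, 21 and 16 include Sema3d, Sema3g or both, which are at background.

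Without 1 array, the count ran from 2 to 6 in KO hippocampal culture (2 without KO litter 2038), from 0 to 2 in KO cortical culture, from 0 to 1 in KO primary cortex (1 without WT litter 3569) and from 0 to 3 for the KO difference between culture and tissue. It ran from 1 to 4 over litters, with 1 left without KO litter 2037 or 2038. Only Sema4f in KO hippocampal culture and Sema3a over litters kept a KO call in every such refit. Sema3a in KO hippocampal culture lost it without KO litter 2038. The number of arrays limits the precision, and signals near 5.16 carry no order.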
